A study of Mus musculus with 12 samples.

Results

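The comparison described here is that of Nsd2 KO with WT brains from male mouse embryos at E15.5. Its members are the 6 male libraries of the 12 in the series, 3 WT and 3 KO, chosen by the sex and genotype in their labels. Of the 46078 genes in the count table, 18803 had at least 10 counts in at least 3 of these 6 libraries and were tested. All animals were on the C57BL/6 background. The KO allele, made by CRISPR/Cas9, lacks the whole coding sequence of Nsd2 in every cell of the embryo, and KO pups do not survive the first day after birth. WT animals carried no deletion, and neither group was treated. RNA came from the brain as a whole, so each value averages over all its regions and cell types, and fewer cells of a type cannot be told apart from less RNA per cell. The study describes the samples of a group as biological replicates but does not give their litters, so p-values measure the spread between these 6 samples.

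NSD2 is a histone methyltransferase that places 2 methyl groups on lysine 36 of histone H3 (H3K36me2), a mark found over active genes and broad regions between genes. In humans, loss of a segment of chromosome 4 that includes NSD2 causes Wolf-Hirschhorn syndrome, with growth delay and intellectual disability. At E15.5 the mouse brain is making neurons, which are growing axons and beginning to express the receptors, channels and adhesion proteins of the synapse. Clustered protocadherins are adhesion proteins of neurons that are encoded side by side in the alpha, beta and gamma clusters of chromosome 18, and each neuron uses a combination of them.

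The libraries held between 55703865 and 58904269 counts, and the totals did not differ between the genotypes beyond the spread of the replicates (two-sided exact permutation test, p = 0.4, where 0.1 is the smallest p that 3 libraries against 3 allow). Levels are given as CPM, the read counts of a gene relative to the library size after TMM scaling, in the order WT male 1, 2 and 3 and then KO male 1, 2 and 3. The neuronal genes Tubb3 and Map2 lay between 1458 and 1666 CPM in all 6 libraries. Xist stood at 0.101 to 0.172 CPM and the Y-linked Ddx3y at 30.7 to 41.4 CPM in every library, the pattern of males.

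Some libraries stood apart in the tissue they held. Hoxa5, a gene of the caudal hindbrain and spinal cord, was at 0.874, 43.7 and 54.0 CPM in WT and at 0.0892, 13.2 and 0 CPM in KO. The summed level of the Hox genes was 26.7, 238 and 279 CPM in WT and 7.78, 74.8 and 0.995 CPM in KO. WT male 2, WT male 3 and KO male 2 therefore carried more caudal transcripts than the other 3 libraries. WT male 2 also held markers of peripheral sensory neurons, with Prph at 67.5 CPM against 2.23 to 13.7 CPM elsewhere and Avil at 12.9 CPM against 0.683 to 1.499 CPM. Scn10a, a sodium channel of sensory neurons, was at 8.11 CPM in that library and at 0 to 0.566 CPM in the others. Results are therefore also given with libraries left out and from a fit that takes the summed Hox level as a covariate.

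Nsd2 itself, named Whsc1 in the count table (chr5:33820725-33897975 of GRCm38), was checked first in every library. Whsc1 stood at 381, 364 and 365 CPM in WT and at 1.34, 0.909 and 1.28 CPM in KO. The groups lay far apart, at 370.2 ± 9.08 and 1.18 ± 0.235 CPM (SD, n = 3 each), a log2 fold change of -8.29 with a standard error (SE) of 0.132 (edgeR quasi-likelihood test, Benjamini-Hochberg adjusted p = 3.05e-08). It was left out of every count below.

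In KO male brains, single genes for synaptic adhesion, such as Lrfn5 and Slitrk4, for inhibitory receptors, such as Gabra5, and for cAMP signalling, such as Sphkap, were downregulated, and 16 of 21 protocadherin beta genes were upregulated. Of the 18802 other genes, 63 (0.335%) were downregulated and 23 (0.122%) were upregulated in KO male brains at an adjusted p under 0.05, and these 86 are called DEGs here. In 51 of them the change was at least 1 on the log2 scale, with 37 lower and 14 higher. The KO libraries of all 86 lay outside the range of the WT libraries, which was also true of 1633 genes (8.69%) below and 1613 genes (8.58%) above WT among all genes tested. An unadjusted p under 0.05 was reached by 2232 genes, where 940.1 would be expected by chance.

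**Figure D1:**
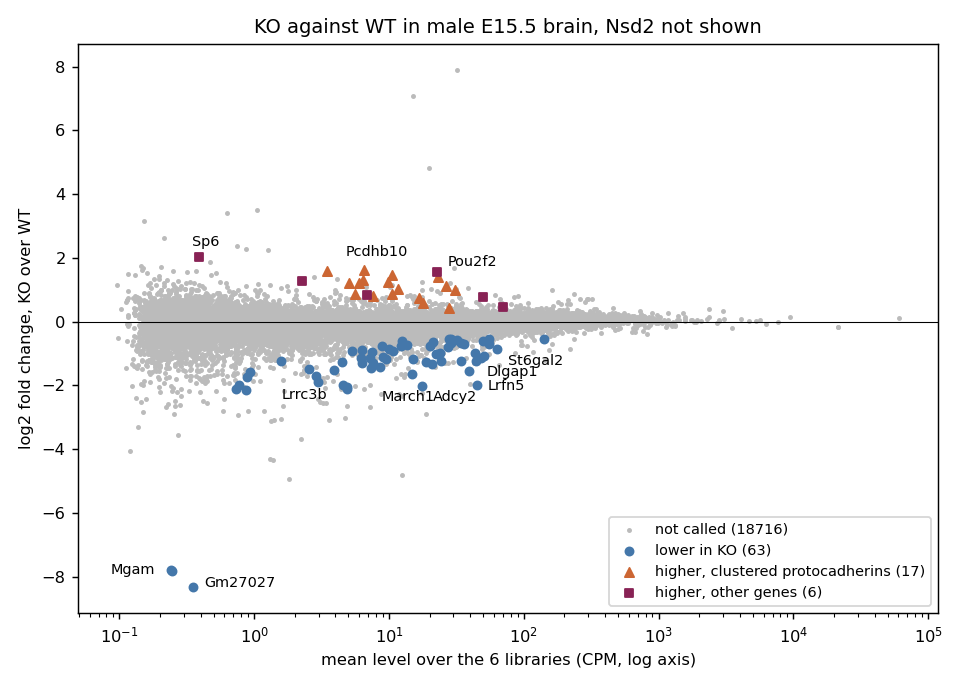
Log2 fold change of KO over WT (vertical axis) against the mean level over the 6 male libraries in CPM (horizontal log axis), 1 point per tested gene, with the 63 downregulated and 23 upregulated DEGs coloured. The 17 clustered protocadherins make up most of the upregulated DEGs, and the 3 points under -7 (Mgam, Gm26781 and Gm27027) are genes without a count in KO, whose fitted fold change depends on the prior count.

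The calls changed with the library left out, and each such fit also has fewer libraries and so less power. With each of the 6 libraries left out in turn, 17 DEGs passed every time and 15 passed in none of the 6 fits. The 17 are the downregulated March1, St6gal2, Lrfn5, Sphkap, Lrrc3b, Slitrk4, Dlgap1, Trim12c and Ryr3, and the upregulated Pou2f2 with 7 beta protocadherins (Pcdhb19, Pcdhb17, Pcdhb16, Pcdhb14, Pcdhb11, Pcdhb10 and Pcdhb9). The number of DEGs that passed again was 61, 35 and 24 when WT male 1, 2 or 3 was omitted, and 21, 60 and 19 when KO male 1, 2 or 3 was omitted. Most calls were thus kept without WT male 1 or KO male 2. These are the WT library with the lowest and the KO library with the highest summed Hox level (26.7 and 74.8 CPM). Genotype and Hox level partly coincide in the 6 libraries, and their parts in the calls cannot be fully told apart. In the fit with the Hox covariate, 12 of the 86 passed. When the spread was taken from all 12 libraries of the series, 62 passed, and the downregulated DEGs that did not pass include Gabra4, Gabra5, Glra2, Pcdh15, Csmd1, Csmd3, Hs3st4, Ifi203, Gm26781, Gm27027 and Pcdhgb5. The upregulated ones that did not include Pou2f2, Sp6, Gm28036, Pcdhga7, Pcdhb22, Pcdhb21 and Pcdhb6. No DEG changed its direction in any of these fits.

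Lrfn5, St6gal2 and March1 had the smallest adjusted p of the downregulated DEGs. Lrfn5 encodes a transmembrane protein with leucine-rich repeats that acts at synaptic contacts, and its transcript was at 65.7, 77.1 and 72.6 CPM in WT and at 17.6, 21.9 and 14.9 CPM in KO. The lowest WT library lay well above the highest KO library, and the log2 fold change was -1.99 (SE 0.14, edgeR adjusted p = 0.00174). St6gal2, which encodes an enzyme that adds sialic acid to sugar chains, stood at 75.3, 83.0 and 85.7 CPM in WT and at 45.0, 44.1 and 45.2 CPM in KO (log2 fold change -0.86, SE 0.0653, edgeR adjusted p = 0.00173). March1, a ubiquitin ligase of membrane proteins, was at 44.8, 52.6 and 45.8 CPM in WT and at 19.3, 22.2 and 19.7 CPM in KO (log2 fold change -1.23, SE 0.0916, edgeR adjusted p = 0.00173). Among upregulated genes outside the protocadherin clusters, Pou2f2, a transcription factor with a POU domain, stood out at 12.3, 11.8 and 10.2 CPM in WT and 35.2, 34.6 and 31.9 CPM in KO (log2 fold change 1.57, SE 0.0936, edgeR adjusted p = 0.000912).

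H3K36me2 is known to recruit an enzyme that methylates CpG. For 3 of these genes, the 250 bases before a RefSeq start are therefore printed to show how far they differ in CpG content. They are Lrfn5 at chr12:61522917-61523166 on the plus strand, St6gal2 at chr17:55445132-55445381 on the plus strand and Pou2f2 at chr7:25132461-25132710 on the minus strand, from RefSeq on GRCm38.p6, each written 5′ to 3′ on its own strand with every CpG in capitals. The start given for Pou2f2 lies inside the gene as annotated by GENCODE (chr7:25087344-25179726), so its window precedes an internal start and not the outermost one. For every gene with several RefSeq starts, here and in the median below, the window with the most CpG was taken.
Lrfn5: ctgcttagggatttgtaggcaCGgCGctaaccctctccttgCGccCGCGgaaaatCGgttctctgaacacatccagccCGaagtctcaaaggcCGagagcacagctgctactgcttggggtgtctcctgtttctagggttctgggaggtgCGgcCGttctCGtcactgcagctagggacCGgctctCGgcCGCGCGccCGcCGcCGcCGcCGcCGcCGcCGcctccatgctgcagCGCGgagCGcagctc
St6gal2: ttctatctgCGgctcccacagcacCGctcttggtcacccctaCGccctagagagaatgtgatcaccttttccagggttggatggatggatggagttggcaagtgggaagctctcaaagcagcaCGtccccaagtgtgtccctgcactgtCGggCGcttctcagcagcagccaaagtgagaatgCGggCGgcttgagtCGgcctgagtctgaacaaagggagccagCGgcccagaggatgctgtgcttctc
Pou2f2: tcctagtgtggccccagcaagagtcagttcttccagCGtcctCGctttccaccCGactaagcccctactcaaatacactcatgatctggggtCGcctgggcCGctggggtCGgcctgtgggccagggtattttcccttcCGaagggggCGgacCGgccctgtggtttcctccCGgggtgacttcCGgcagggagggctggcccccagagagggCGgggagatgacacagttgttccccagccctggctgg
Lrfn5 holds 27 CpG in this window, St6gal2 10 and Pou2f2 12. Over the 11999 tested genes with a promoter in the same table the median was 16 CpG, and 62.6% had a GC content over 50% with an observed to expected CpG ratio over 0.6. The 3 sequences are a description, and no methylation was measured here.

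Synaptic adhesion molecules, proteins that hold pre- and postsynaptic membranes together, contributed 5 downregulated and no upregulated DEGs of 66 tested members. The list's median log2 fold change was -0.15, where that of all genes was -0.0054, and it was -0.051 without WT male 2. The other 61 members did not pass, and the summed level of the list was 7573 to 8239 CPM in WT and 7646 to 7828 CPM in KO. Besides Lrfn5, these were members of the Slitrk family, which organize synapses through partner phosphatases, and Cntnap5c, a neurexin-related protein. Slitrk4 was at 25.6, 29.7 and 24.9 CPM in WT and at 11.1, 12.6 and 9.94 CPM in KO, with no overlap (log2 fold change -1.25, SE 0.115, edgeR adjusted p = 0.00421). Slitrk5 and Slitrk3 fell by less, with log2 fold changes of -0.53 in both (edgeR adjusted p = 0.0286 and 0.0475). Cntnap5c stood at 3.43 to 4.28 CPM in WT and 1.09 to 1.55 CPM in KO (log2 fold change -1.49, edgeR adjusted p = 0.021). Lrfn5 and Slitrk4 passed without each library, whereas Cntnap5c passed only without WT male 1 or KO male 2, and Slitrk5 and Slitrk3 only without WT male 1, with adjusted p of up to 0.123, 0.167 and 0.281 in the other fits.

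Lrrc3b, another gene for a membrane protein with leucine-rich repeats, was at 6.25, 7.97 and 7.66 CPM in WT and at 1.73, 2.23 and 1.56 CPM in KO (log2 fold change -1.99, SE 0.182, edgeR adjusted p = 0.00421). The non-clustered protocadherins, single adhesion genes outside the clusters, gave 2 downregulated DEGs of 12 tested, with a median of -0.047. Pcdh11x was at 57.0, 79.4 and 62.5 CPM in WT and at 29.3, 33.5 and 27.4 CPM in KO (log2 fold change -1.14, SE 0.134, edgeR adjusted p = 0.0197). Pcdh15, known for its part in the hair cells of the inner ear, had a log2 fold change of -1.17 (SE 0.153, edgeR adjusted p = 0.021). Omitting KO male 1 or 3 ended both calls, and omitting WT male 3 that of Pcdh11x, with adjusted p of up to 0.127.

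Of the postsynaptic scaffolds and receptor partners, 2 of 40 were downregulated and none upregulated (median -0.076, and -0.038 without WT male 3). Dlgap1 encodes a scaffold protein of the postsynaptic density and was at 51.0, 65.4 and 69.9 CPM in WT and at 24.99, 27.0 and 26.7 CPM in KO. The KO libraries were close to each other and all under the lowest WT library (log2 fold change -1.24, SE 0.115, edgeR adjusted p = 0.00472). Syndig1, which encodes a protein that associates with AMPA receptors, stood at 8.36, 10.99 and 12.6 CPM in WT and at 3.92, 4.14 and 3.72 CPM in KO (log2 fold change -1.44, SE 0.162, edgeR adjusted p = 0.0117), and did not pass without KO male 1 or KO male 3 (adjusted p up to 0.0848). Among 56 genes of the presynaptic release machinery, Syt9, a calcium sensor of vesicle fusion, was the one DEG (median of the list -0.14). Syt9 was at 21.1, 25.9 and 20.4 CPM in WT and at 5.79, 9.02 and 6.84 CPM in KO (log2 fold change -1.64, SE 0.174, edgeR adjusted p = 0.0112). Without KO male 3 its adjusted p was 0.0848.

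Receptors of inhibitory transmission were lower in KO brains in part, with 5 of 20 GABA and glycine receptor genes downregulated, none upregulated and a median of -0.47. Gabra4 and Gabra5 encode subunits of the GABA type A receptor, the chloride channel opened by GABA, and Glra2 and Glra3 subunits of the glycine receptor. Gabra5 was at 23.5, 33.4 and 33.0 CPM in WT and at 10.6, 14.9 and 10.3 CPM in KO (log2 fold change -1.33, SE 0.189, edgeR adjusted p = 0.0386). The log2 fold changes of Gabra4, Glra2 and Glra3 were -0.92, -0.61 and -1.74 (edgeR adjusted p = 0.0177, 0.0286 and 0.0338). All 5 calls were lost when any of WT male 2 or 3 or KO male 1 or 3 was omitted, with adjusted p of up to 0.216. With the spread taken from all 12 libraries Gabra4, Gabra5 and Glra2 had adjusted p of 0.175, 0.164 and 0.0962. Members of the list overlap other tested genes on the opposite strand, and the strand setting of the counting is not stated, so their reads may not be fully separated.

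Other receptor lists held single DEGs. Gria4, a subunit of the AMPA-type glutamate receptor, was at 63.0, 78.4 and 65.4 CPM in WT and at 32.7, 38.7 and 27.2 CPM in KO (log2 fold change -1.07, SE 0.14, edgeR adjusted p = 0.0284), as the one DEG of 24 glutamate receptor genes (median -0.27, and -0.17 without WT male 2). Htr7, a serotonin receptor that raises cAMP, was the one of 42 receptors for monoamines, acetylcholine and opioids (median -0.44, and -0.25 without WT male 2). Htr7 was at 5.52, 8.71 and 9.37 CPM in WT and at 1.61, 2.48 and 1.59 CPM in KO (log2 fold change -2.05, SE 0.259, edgeR adjusted p = 0.021). Both calls were likewise lost on omitting any of these 4 libraries (WT male 2 or 3, KO male 1 or 3), with adjusted p of up to 0.169 for Gria4 and 0.127 for Htr7.

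Genes of cAMP and calcium signalling were also among the downregulated DEGs. Adcy2, an adenylyl cyclase that makes cAMP, was at 23.3, 33.2 and 28.9 CPM in WT and at 6.42, 9.38 and 5.07 CPM in KO (log2 fold change -2.03, SE 0.242, edgeR adjusted p = 0.0268). Sphkap, an anchoring protein for the cAMP-dependent kinase, was at 55.5, 62.4 and 56.1 CPM in WT and at 27.5, 32.5 and 27.9 CPM in KO (log2 fold change -0.98, SE 0.0873, edgeR adjusted p = 0.00371). They were 2 of 37 genes in the cAMP list, whose median was -0.098, and -0.063 without WT male 2, with 35 members not passing. Sphkap passed without each library, and Adcy2 only without WT male 1 or KO male 2 (adjusted p up to 0.186 otherwise). Ryr3, a ryanodine receptor that releases stored calcium inside the cell, was at 19.6, 23.1 and 20.3 CPM in WT and at 9.94, 10.2 and 7.66 CPM in KO (log2 fold change -1.18, SE 0.13, edgeR adjusted p = 0.0112). With Ryr3, the cation channels Trpc5 and Trpc1 (log2 fold changes -1.30 and -0.61, edgeR adjusted p = 0.0177 and 0.0286) made up 3 DEGs of 41 genes for sodium, calcium and other cation channels, where the median was -0.17 and moved to -0.016 without WT male 2. Trpc5 passed only without WT male 1 or KO male 2 and Trpc1 only without WT male 1, with adjusted p of up to 0.112 and 0.182 otherwise. Ryr3 overlaps Aven on the opposite strand.

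Voltage-gated potassium channels and their partners had a single DEG of 41, with a median of -0.35 and 36 members below 0. Dpp10, an auxiliary subunit of Kv4 channels, was at 50.7, 70.1 and 53.6 CPM in WT and at 17.2, 24.4 and 17.5 CPM in KO (log2 fold change -1.56, SE 0.179, edgeR adjusted p = 0.021), and was lost on omitting WT male 3 or KO male 1 or 3 (adjusted p up to 0.127). Its partner channel Kcnd2 (Kv4.2) did not pass, at 61.9 ± 9.38 CPM in WT and 42.1 ± 3.82 CPM in KO (SD, n = 3 each, log2 fold change -0.56, edgeR adjusted p = 0.123). Nrg3, a growth factor that signals to the receptor ErbB4, was at 28.0, 33.9 and 33.1 CPM in WT and at 14.8, 17.1 and 16.0 CPM in KO, a log2 fold change of -0.99 (SE 0.0996, edgeR adjusted p = 0.00676). Without KO male 3 its adjusted p was 0.0551. The guidance receptor Epha6 was the one DEG of 51 axon guidance genes (log2 fold change -1.10, edgeR adjusted p = 0.0293), and the median of that list was 0.077. Its call held only without WT male 1 or KO male 2 (adjusted p up to 0.182 otherwise).

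**Figure D2:**
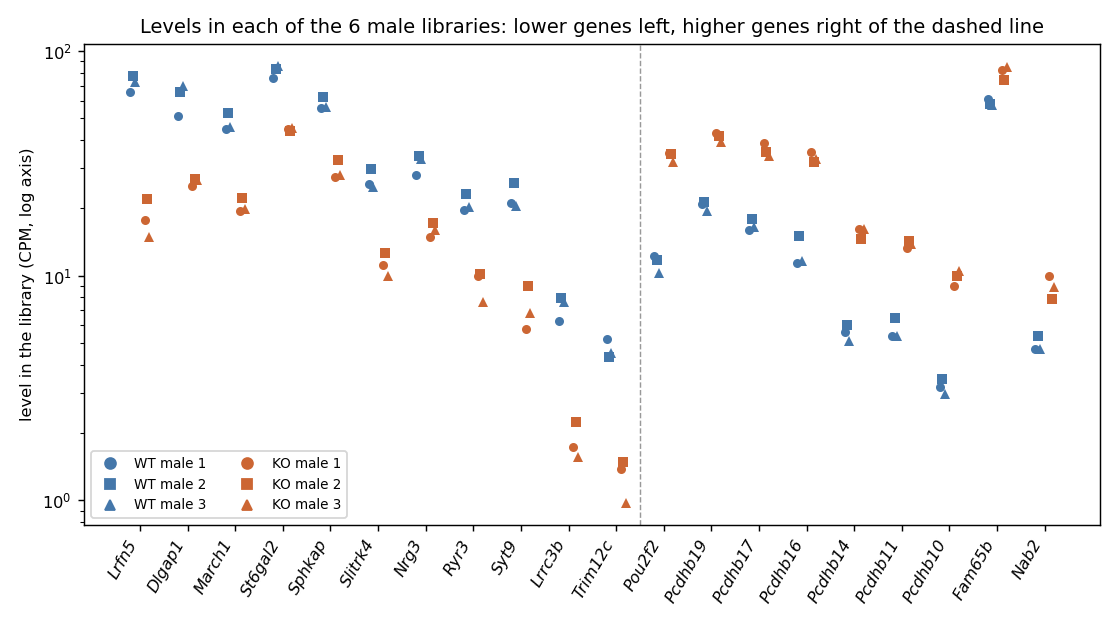
Level in CPM (log axis) of named DEGs in each of the 6 male libraries, with WT in blue and KO in orange and the marker shape giving the replicate. Downregulated genes lie left of the dashed line and upregulated genes right of it, and in none of them do the WT and KO libraries overlap.

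The very large genes Csmd1 and Csmd3, which encode membrane proteins with complement-like domains, were downregulated with log2 fold changes of -0.998 and -0.68 (edgeR adjusted p = 0.0286 and 0.0355). Csmd3 passed in none of the fits with a library left out (adjusted p up to 0.182) and Csmd1 only without WT male 1 or KO male 2 (up to 0.167). Hs3st4, which sulphates heparan sulphate chains, had a log2 fold change of -0.57 (edgeR adjusted p = 0.0386) and passed again only without WT male 1. With St6gal2 it made up the 2 DEGs in a list of 23 sialyltransferases, glycosyltransferases and other enzymes of sugar chains. Neurod4, a transcription factor of early neurons, was at 4.95, 3.84 and 4.37 CPM in WT and at 1.11, 1.69 and 1.199 CPM in KO (log2 fold change -1.72, SE 0.21, edgeR adjusted p = 0.0177). It was the one DEG among 14 genes of intermediate progenitors and neurogenic factors, of which 12 had positive log2 fold changes. Its adjusted p reached 0.116 on omitting WT male 3 or KO male 1 or 3.

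Innate immune genes of the Ifi200 and Trim30 clusters gave 3 downregulated DEGs of 12 tested, and all 12 had negative log2 fold changes (median -0.98). The summed level of the clusters was 20.5, 19.5 and 19.5 CPM in WT and 11.2, 10.98 and 10.7 CPM in KO. Trim12c, a TRIM protein related to antiviral factors, was at 5.20, 4.33 and 4.55 CPM in WT and at 1.38, 1.48 and 0.977 CPM in KO (log2 fold change -1.88, SE 0.199, edgeR adjusted p = 0.00947). Mndal and Ifi203 overlap each other on the same strand of chromosome 1, so their counts may share reads, and their log2 fold changes were -2.11 and -1.56 (edgeR adjusted p = 0.0203 and 0.0455). Ifi203 passed in none of the fits with a library left out (adjusted p up to 0.21) and Mndal only without WT male 1 or KO male 2 (up to 0.116). None of 15 genes of the interferon response passed (median -0.20). The members of these clusters are close copies of each other, and how reads common to several of them were counted is not stated.

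A glial gene was also among the DEGs. Ugt8a, which makes the galactolipids of myelin, was at 5.50, 6.75 and 5.12 CPM in WT and at 2.07, 2.50 and 1.51 CPM in KO (log2 fold change -1.52, SE 0.212, edgeR adjusted p = 0.0282), and passed only without KO male 2 (adjusted p up to 0.133 otherwise). All 14 tested genes of the oligodendrocyte lineage had negative log2 fold changes, with a median of -0.55 and the other 13 not passing. The summed level of that list was 194, 287 and 199.6 CPM in WT and 159, 182 and 157 CPM in KO, with WT male 2 the highest. The 12 astrocyte markers had no DEG and a median of -0.47, and their summed level was likewise highest in WT male 2, at 1035 CPM against 801 and 806 CPM in the other WT libraries and 684 to 798 CPM in KO.

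Mgam, Gm26781 and Gm27027 were without a single count in the 3 KO libraries. Mgam had 25, 25 and 34 counts in WT, Gm26781 had 20, 32 and 31, and Gm27027 had 28, 53 and 40. Against a floor of 3 counts over the KO group, their levels were at least 27.8-fold, 27.5-fold and 40.1-fold lower. Gm27027 overlaps Alkbh3 on the same strand and Gm26781 overlaps Camsap2 on the opposite strand, so the assignment of reads between these pairs is uncertain. Omitting WT male 2 or 3 or KO male 3 ended all 3 calls, and omitting KO male 1 those of Mgam and Gm26781 (edgeR adjusted p up to 0.088). Tchh, a structural protein of hair follicles, was the other strongly downregulated gene of low level, at 1.16 to 1.76 CPM in WT and 0.25 to 0.446 CPM in KO (log2 fold change -2.13, edgeR adjusted p = 0.0289), and it passed again only without WT male 1 or KO male 2.

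Protocadherin beta genes were upregulated as a cluster. Of the 22 listed, 21 were tested and 16 were upregulated, all 21 had positive log2 fold changes (0.25 to 1.61, median 1.01), and in 20 the KO libraries lay above all WT libraries. With single libraries left out the median stayed between 0.96 and 1.04, and it was 1.03 in the fit with the Hox covariate. The summed level of the beta genes was 163, 183 and 157 CPM in WT and 336, 328 and 325 CPM in KO. The 3 KO libraries were thus nearly equal in this sum, and their summed Hox levels were 7.78, 74.8 and 0.995 CPM. Whether the levels are related was not tested.

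Pcdhb10, an adhesion molecule like all members of the cluster, had the largest change among the beta genes, at 3.18, 3.47 and 2.98 CPM in WT and 9.01, 9.999 and 10.5 CPM in KO (log2 fold change 1.61, SE 0.124, edgeR adjusted p = 0.00173). Pcdhb14 was at 5.59, 6.02 and 5.14 CPM in WT and at 16.2, 14.5 and 16.1 CPM in KO (log2 fold change 1.48, SE 0.106, edgeR adjusted p = 0.00173). The more abundant Pcdhb19 was at 20.8, 21.3 and 19.4 CPM in WT and at 42.9, 41.7 and 39.1 CPM in KO (log2 fold change 1.01, SE 0.0744, edgeR adjusted p = 0.00173). Along the chromosome, the 8 neighbours from Pcdhb10 to Pcdhb17 had log2 fold changes of 1.11 to 1.61, a stretch that was chosen after its values were seen. From Pcdhb3 to Pcdhb8 the log2 fold changes were smaller, at 0.25 to 0.87, and Pcdhb4, Pcdhb5, Pcdhb7 and Pcdhb8 did not pass. Pcdhb18 did not pass either (log2 fold change 0.83, edgeR adjusted p = 0.0606). Of the 16 calls, 7 passed without each library, and Pcdhb3, Pcdhb6 and Pcdhb22 passed in none of the fits with a library left out (adjusted p up to 0.116, 0.182 and 0.227). The beta genes are close in sequence and the counting of reads common to several is not stated, so the value of a single member is less certain than that of the cluster.

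The neighbouring clusters did not follow the same pattern. None of 13 protocadherin alpha genes passed, with log2 fold changes from -0.83 to 1.41 and a median of -0.20, and their summed level was 181 to 224 CPM in WT and 186 to 207 CPM in KO. Of 21 gamma genes, Pcdhga7 was upregulated (log2 fold change 0.42, edgeR adjusted p = 0.0406) and Pcdhgb5 downregulated (log2 fold change -0.72, edgeR adjusted p = 0.0247), with a median of -0.044. Their summed level was 656 to 706 CPM in WT and 676 to 704 CPM in KO. Pcdhga7 passed in none of the fits with a library left out (adjusted p up to 0.281) and Pcdhgb5 only without WT male 2. Both genes share their last exons with the rest of the gamma cluster, so their own reads cannot be fully told apart from those of other members. A test of the difference between the clusters was not run.

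**Figure D3:**
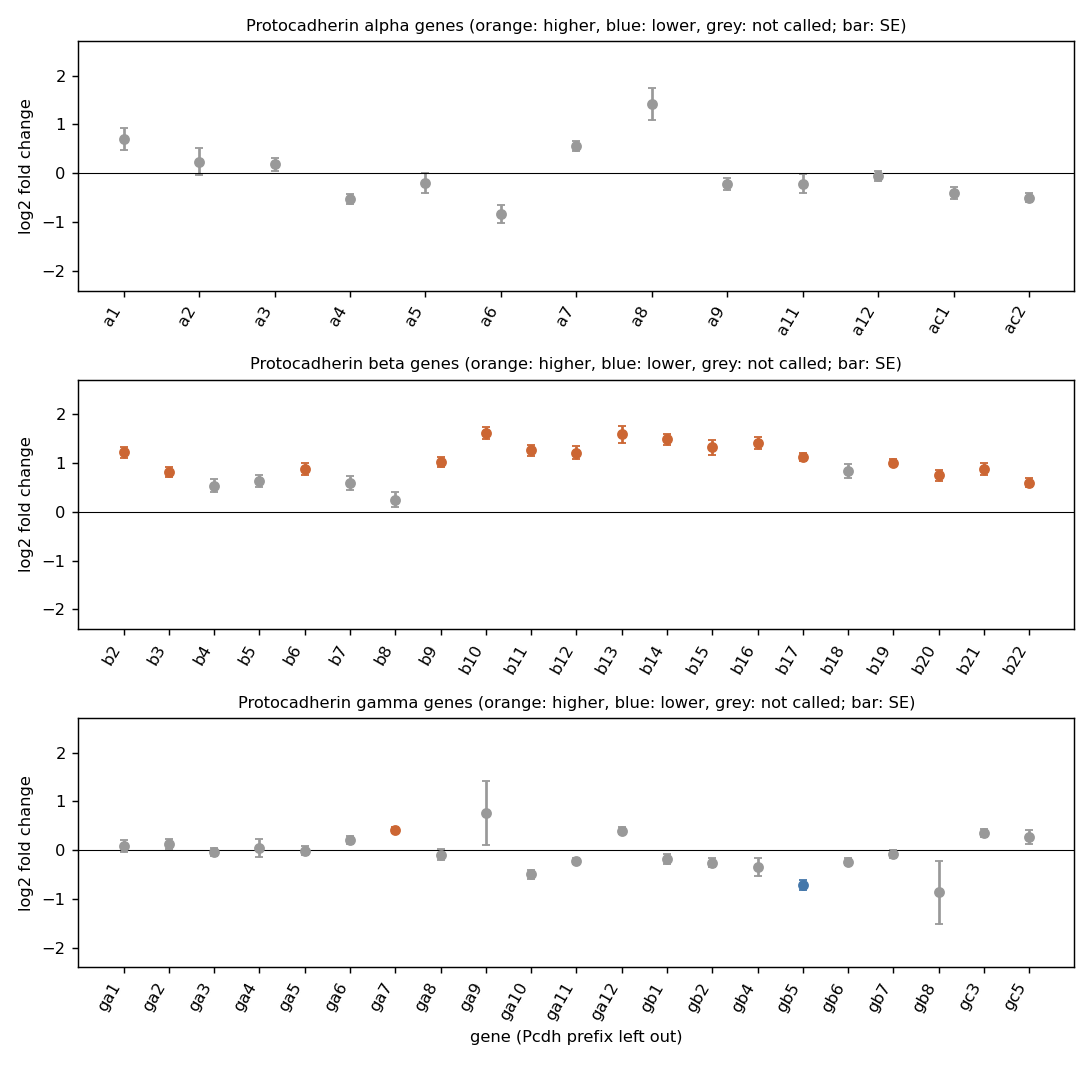
Log2 fold change of KO over WT with its SE (bars) for each tested gene of the protocadherin alpha, beta and gamma clusters in their named order, with upregulated DEGs in orange, downregulated in blue and other genes in grey. All 21 beta genes lie above 0, whereas alpha and gamma genes lie on both sides.

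Outside the clusters, 6 genes were upregulated. Pou2f2, given above, was 1 of 16 POU and Zic factors, which all had positive log2 fold changes (median 0.38). Its mean level was 11.4 ± 1.05 CPM in WT and 33.9 ± 1.79 CPM in KO (SD, n = 3 each), and the call passed without each library and in the fit with the Hox covariate. With the spread taken from all 12 libraries the adjusted p of Pou2f2 was 0.171. Nab2, a repressor of the immediate early factor Egr1, was at 4.72, 5.40 and 4.69 CPM in WT and at 9.91, 7.84 and 8.89 CPM in KO (log2 fold change 0.85, SE 0.13, edgeR adjusted p = 0.0386), as the one DEG of 17 immediate early genes and their repressors.

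Fam65b was the most abundant of the 6, at 60.9, 57.8 and 57.5 CPM in WT and 81.9, 74.2 and 84.6 CPM in KO (log2 fold change 0.45, SE 0.067, edgeR adjusted p = 0.0346). The transcription factor Sp6 had the largest log2 fold change of the upregulated genes, 2.04 (SE 0.308, edgeR adjusted p = 0.0357), at a low level of 0.143 to 0.168 CPM in WT and 0.537 to 0.72 CPM in KO. Gm28036 (log2 fold change 0.77) overlaps Cpne1, Nfs1 and Rbm12 on the same strand, so its reads are uncertain. On the opposite strand, Pou2f2 overlaps D930028M14Rik (mean 6.64 CPM) and Nab2 overlaps Stat6 and Tmem194 (6.54 and 11.2 CPM). Sp6 overlaps Gm11532 (0.392 CPM) and Fam65b overlaps C530050E15Rik and Gm11346 (1.03 and 1.89 CPM) in the same way. As the strand setting of the counting is not stated, the reads of these genes may not be fully separated. Sp6 passed in none of the fits with a library left out, Nab2 and Fam65b only without KO male 2 and Gm28036 only without KO male 3, with adjusted p of up to 0.22 in the other fits.

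Lists that bear on chromatin and on the tissue as a whole held no DEG. The other H3K36 methyltransferases had a median log2 fold change of 0.060 over 8 genes, with Nsd1 at 411 ± 18.04 CPM in WT and 477 ± 26.4 CPM in KO (SD, n = 3 each, log2 fold change 0.22, edgeR adjusted p = 0.285) and Setd2 at a log2 fold change of 0.19 (edgeR adjusted p = 0.344). The median was 0.14 over 32 chromatin readers, demethylases and Polycomb genes and 0.077 over 22 neighbours of Nsd2 on chromosome 5. Pan-neuronal genes had a median of -0.090, deep and upper layer cortical neurons 0.14, cell cycle genes 0.080 and cytosolic ribosomal proteins -0.020. The sign of the cell cycle median turned without WT male 2 (-0.032) and that of the ribosomal proteins without WT male 3 (0.056). Actb, a housekeeping gene, had a log2 fold change of 0.024 (edgeR adjusted p = 0.929), and Sorbs2, an adaptor of the actin cytoskeleton, one of 0.33 (edgeR adjusted p = 0.125).

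No marker of brain regions or of tissue outside the brain passed the test, and their levels differed between single libraries. Forebrain factors had a median of 0.36 and a summed level of 821, 586 and 805 CPM in WT and 1056, 901 and 1034 CPM in KO. All 19 tested Hox genes had negative log2 fold changes (median -2.56), although the summed Hox level of WT male 1 lay below that of KO male 2. Markers of hindbrain and spinal neurons had a median of -0.998 over 21 genes. Their summed level, which follows the most abundant members, was 310.2, 296 and 172 CPM in WT and 276, 332 and 379 CPM in KO, so the groups overlapped. Neural crest and sensory ganglion markers had a median of -2.21 over 12 genes, which was -0.42 when WT male 2 was left out, and a summed level of 239, 301 and 121 CPM in WT and 231, 270.1 and 356 CPM in KO. With the Hox level added to the fit, 6 genes were downregulated and 7 upregulated. In that fit the median of the GABA and glycine receptors was -0.18, that of the potassium channels -0.13 and that of the monoamine, acetylcholine and opioid receptors -0.099. The median of the synaptic adhesion molecules was -0.015 in the same fit, that of the presynaptic release machinery -0.015, that of the postsynaptic scaffolds -0.031 and that of the cAMP list -0.0063, near that of all genes. The median of the Ifi200 and Trim30 clusters was -1.04 in it. The 12 DEGs that passed in it were Lrfn5, St6gal2, March1, Lrrc3b, Adcy2, Pou2f2, and the beta genes Pcdhb19, Pcdhb17, Pcdhb16, Pcdhb14, Pcdhb11 and Pcdhb10.

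**Figure D4:**
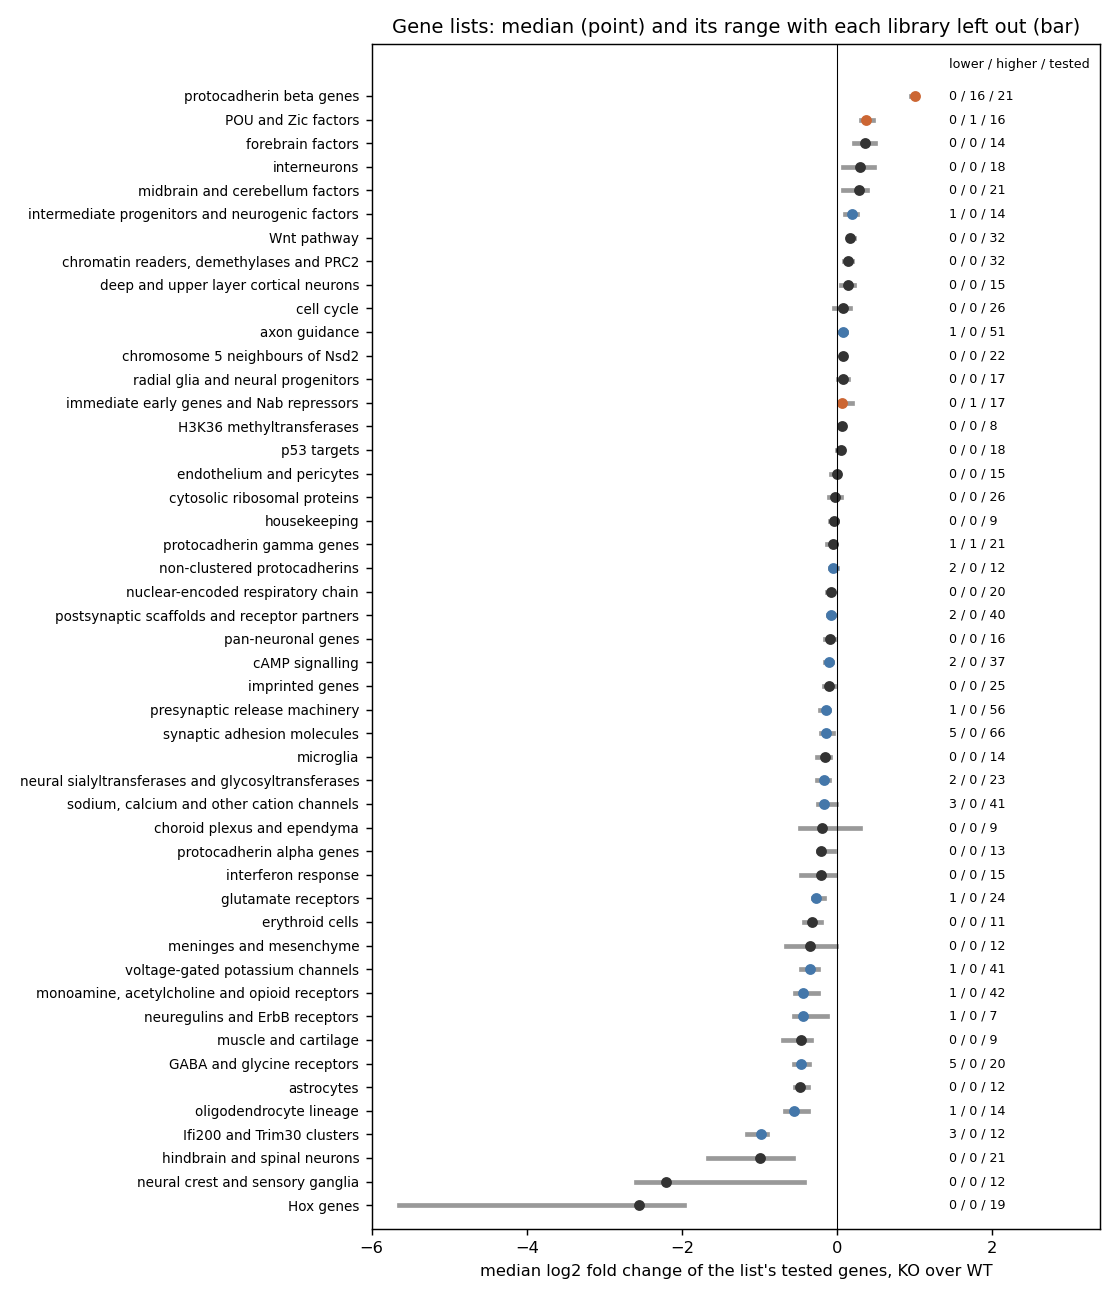
Median log2 fold change of the tested genes of each list (points) and its lowest and highest value with each of the 6 libraries left out in turn (bars), with the numbers of downregulated, upregulated and tested genes at the right. Protocadherin beta genes have the highest median, 1.01, with a narrow bar, and the Hox genes the lowest, -2.56, with a wide one.

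Downregulated DEGs were longer genes than most. The annotated span, from the first to the last base of the gene, had a median of 133 kb over the 62 downregulated DEGs with a position and of 18.4 kb over all genes tested, and 35 of the 62 (56.5%) spanned over 100 kb against 12.9% of all. The median level of both sets was similar, at 12.2 and 13.1 CPM. Pcdh15 and Csmd1 (log2 fold changes -1.17 and -0.998) had spans of 1550.4 and 1643 kb, and Nrg3 and Csmd3 (-0.99 and -0.68) of 1104 and 1211 kb. Upregulated DEGs had a median span of 4.71 kb, and 17 of 23 were under 10 kb, of which 16 were clustered protocadherins.

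Among the 557 tested genes over 300 kb, 24 (4.31%) were downregulated and none upregulated, whereas 0.0754% of genes under 10 kb were downregulated. The median log2 fold change of genes over 300 kb was -0.11 and moved to -0.027 without WT male 2. In that library the median deviation of these genes from the mean of the 6 libraries was 0.198 on the log2 scale, while it was 0.0015 and 0.0040 in the other WT libraries and -0.0783, -0.0281 and -0.0795 in KO. The long genes as a class were thus highest in WT male 2, the library with sensory neuron markers. That library also had the highest summed level of meninges and mesenchyme markers, at 1347 CPM against 260 to 644 CPM in the others. Its summed level of forebrain factors was the lowest, at 586 CPM. The part of these tissue differences in the level of long genes was not tested. In the female libraries the median of genes over 300 kb was -0.19, and that of genes under 10 kb was 0.053.

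**Figure D5:**
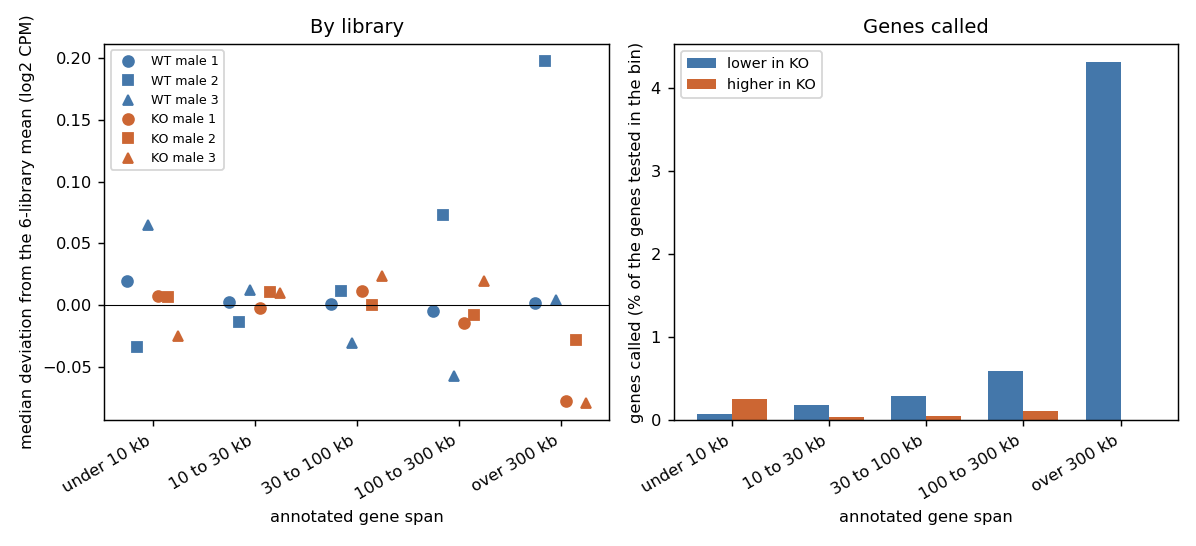
Left, median deviation of log2 CPM from the mean of the 6 libraries for genes in bins of annotated span, 1 point per library, and right, the share of tested genes in each bin that were downregulated or upregulated. The share of downregulated genes is 4.31% over 300 kb and below 1% in every other bin, and WT male 2 lies at 0.198 over 300 kb, above the other libraries.

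The female libraries of the series, which the male calls did not use, allowed the same genes to be read in other animals. Of the 61 downregulated DEGs that were tested in females, 60 had negative log2 fold changes, where 8775 of all 18210 genes tested in both had, and the median was -0.90. Of the 23 upregulated DEGs, 22 were positive in females, with a median of 0.78. Lrfn5, Pcdhb10 and Pcdhb11 passed the test in females as well (log2 fold changes -1.61, 1.40 and 1.47, edgeR adjusted p = 0.031, 0.0258 and 0.0258). Pou2f2 was the upregulated DEG with the opposite sign, at a log2 fold change of -0.73 in females (edgeR adjusted p = 0.776).

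The difference in genotype effect between males and females was tested as a sex by genotype interaction over all 12 libraries. None of 19718 genes passed in edgeR, 886 had an unadjusted p under 0.05, and DESeq2 called 5. For Pou2f2 the unadjusted p of the interaction was 0.00168 and the adjusted p was 0.907, so no gene is called particular to males here.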

How the data were processed

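RNA-seq of E15.5 brain was analysed in 3 WT and 3 KO male libraries, with 3 and 3 female libraries used for comparison. Before deposit the authors depleted ribosomal RNA, used cutadapt 2.6 and FASTX-toolkit for trimming, HISAT2 2.1.0 for alignment to mm10, and StringTie 2.0.6 with Ensembl 81 for quantification. The deposited values are counts per gene, without normalization, derived from coverage and rounded by StringTie's script. The strand setting, and which library had which of the depletion kits and sequencers, are not given in the sources used here.

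Genes with at least 10 counts in at least 3 of the 6 libraries were tested with the quasi-likelihood F test of edgeR 4.0.16 in R 4.3.3 (TMM, robust fit, genotype as the only term), with Benjamini-Hochberg adjustment over all genes and a threshold of 0.05. The SE is the log2 fold change divided by the square root of F. Library totals were compared by an exact permutation test. Positions came from GENCODE M21 (GRCm38), in which 134 tested genes had none. Figures were drawn with matplotlib 3.10.9 in Python 3.11.15. The edgeR steps were tested on simulated counts with known changes.

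Between 18482 and 19001 genes per library had 10 counts or more. Counting error understates the full error. Between libraries of the same genotype, 42.9% to 59.2% of the genes compared differed beyond counting error. Removal of PCR duplicates is not described for the RNA-seq reads, and the part of such duplicates in this spread was not tested.

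The members and the 49 gene lists were chosen with earlier results of these data known, so lists are described by counts and medians, with no test. Genes named are Whsc1, the 12 downregulated and 12 upregulated DEGs with the smallest p, the 5 in each direction with the largest change, those called without each library, those the study names for RNA, and up to 4 DEGs of each list, or otherwise its most abundant members. Any other gene was chosen with its values in view, which holds for the region markers used to compare libraries, for Slitrk3 and for the beta genes that did not pass.

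Alternatives were RLE size factors, the likelihood ratio and exact tests of edgeR, DESeq2 1.42.0, other filters, the spread of all 12 libraries, a replicate block, the summed Hox level as covariate, the libraries under 1 CPM of Hoxa5 alone, and each library left out. Replicate numbers are shared by WT and KO libraries. The deviations of same-numbered libraries from their group means correlated at 0.0187, 0.295 and -0.106, and those of differently numbered libraries at -0.238 to 0.255. With so few libraries and no litters given, these values cannot decide whether the numbers pair the samples. The main fit used no pairing. A few genes are not reported here.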

Additional observations from a re-analysis of the deposited data

How the results depend on the processing

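The counts of downregulated and upregulated DEGs, 63 and 23, depended on the tool and the libraries used. They were 361 and 118 in DESeq2, 291 and 75 in edgeR's exact test, and 297 and 76 in its likelihood ratio test, each of which kept all 86 calls. RLE size factors, other filters and the spread of all 12 libraries left both counts within 1.5 times, and the last of these kept 62 of the 86 calls. The numbers were 6 and 7 in the fit with the Hox covariate, and 25 and 11 without the 3 libraries above 1 CPM of Hoxa5, which leaves 1 WT library assumed to vary like the KO libraries. With single libraries left out they ranged from 12 to 85 and from 9 to 24. Whether the replicate numbers pair the samples is not known, and a fit with the replicate block gave 208 and 65 and kept all 86 calls. The count of genes that differed between the sexes, 0, was 5 in DESeq2 and 0 to 1 with libraries left out. The cause of these shifts was not tested.

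No named gene changed its direction. Among list medians, the sign turned in the fit with the Hox covariate for the median of protocadherin alpha genes (0.068), the median of interneurons (-0.042), the median of choroid plexus and ependyma (0.15) and the median of Hox genes (0.31). Medians nearer to 0 turned too, with values of 0.053 for protocadherin gamma genes, -0.015 for radial glia, 0.031 for pan-neuronal genes, -0.11 for endothelium and pericytes, -0.12 for cell cycle genes, -0.0031 for p53 targets and 0.013 for imprinted genes. The median of choroid plexus and ependyma ranged from -0.47 to 0.30 with single libraries left out, with 0.30 without WT male 2 and 0.11 without KO male 1. The median of midbrain and cerebellum factors was -0.22 without the 3 libraries above 1 CPM of Hoxa5.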

Other observations

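Several downregulated DEGs outside the lists encode secreted or signalling proteins, and they are named here after their values were seen. Adcyap1, the neuropeptide PACAP, was at 8.48, 11.8 and 9.56 CPM in WT and at 4.29, 5.51 and 3.68 CPM in KO (log2 fold change -1.15, edgeR adjusted p = 0.0455). Igfbp3, which binds insulin-like growth factors, was at 23.4, 25.5 and 27.8 CPM in WT and at 16.5, 16.6 and 16.6 CPM in KO (log2 fold change -0.63, edgeR adjusted p = 0.0257). Metrn, a secreted factor of neural tissue, had a log2 fold change of -0.53 (edgeR adjusted p = 0.0316), and Nxph1, a secreted ligand of neurexins, one of -0.71 (edgeR adjusted p = 0.0286). Metrn passed in none of the fits with a library left out, Igfbp3 only without WT male 1, and Adcyap1 and Nxph1 only without WT male 1 or KO male 2. Igfbp3 and Metrn did not pass with the spread taken from all 12 libraries (adjusted p = 0.209 and 0.164).

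The growth-associated transcription factor Plag1 was at 8.50, 8.61 and 7.28 CPM in WT and at 4.69, 4.17 and 4.32 CPM in KO (log2 fold change -0.89, edgeR adjusted p = 0.0272), and also passed in none of the fits with a library left out. Khdrbs2, an RNA-binding splicing factor of neurons, had a log2 fold change of -0.77 (edgeR adjusted p = 0.0177), and Ube2e2, a ubiquitin-conjugating enzyme, one of -0.66 (edgeR adjusted p = 0.0166). Both were lost without WT male 3, KO male 1 or KO male 3.

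Some genes had large differences that rested on few libraries. Gm20633 was at 114 CPM in KO male 2 and at 0.428 to 1.51 CPM in the other 5 male libraries (log2 fold change 4.83, edgeR adjusted p = 0.526). One of the genes named ACEA_U3 was at 89.3 CPM in KO male 3 and at 0.196 to 0.41 CPM in the others (log2 fold change 7.06, edgeR adjusted p = 0.478). Another gene of that name was at 105.5 CPM in KO male 2 and 83.9 CPM in KO male 3. It was at 0.214 to 0.302 CPM in the WT libraries and KO male 1 (log2 fold change 7.90, edgeR adjusted p = 0.362).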
